A study of Drosophila melanogaster with 20 samples.

Results

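The programmed cell death genes described here are rpr, hid, grim, skl, Dronc, Drice, Dark, Diap1 and p53. They are 9 of the 17807 genes counted, they were chosen by name as the core of the apoptosis pathway of Drosophila, and all 9 passed the filter on low counts that left 10904 genes for testing. In the fly, the inducer proteins Rpr, Hid, Grim and Skl bind the inhibitor of apoptosis protein Diap1, which otherwise holds caspases in check by ubiquitylating them. The initiator caspase Dronc, assembled on the adaptor Dark, then cleaves the effector caspase Drice, which dismantles the cell. Death in the embryo begins around mid-embryogenesis and is patterned mainly by transcription of the inducer genes, and p53 switches on several of them after DNA damage.

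RNA was sequenced from whole Drosophila embryos at stage 12 to 14 (WT replicate 3 is labelled stage 12 to 15), with 5 genotypes and 4 biological replicates of each, every replicate being a pool of GFP-positive embryos picked by hand. The null embryos carried 2 different Ada2b null alleles (Ada2b1 and Ada2b842) and so lacked every isoform of Ada2b, an adaptor of the histone acetyltransferase Gcn5. PA embryos were null embryos with a transgene for the Ada2b-PA isoform, which lack the SAGA and ADA complexes and keep CHAT, whereas PB embryos carried the Ada2b-PB transgene, which lack CHAT and keep SAGA and ADA. PA+PB embryos carried both transgenes on the null background, and WT embryos were elav-Gal4 crossed to GFP without the Ada2b alleles. All 5 genotypes were selected through GFP driven by elav-Gal4, which is active in neurons, and the transgenes were expressed in trans from genomic Ada2b regulatory sequence. WT and PA+PB served as controls, and the comparisons ask which genes need all Ada2b complexes, CHAT, or SAGA and ADA. The null, PA and PB comparisons share these 8 control libraries.

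Each library held between 1665636 and 35678749 counts on genes, with 17874297 to 29013029 in null, 2569525 to 10772137 in PA, 1665636 to 33363718 in PB, 4828612 to 13973822 in PA+PB and 27944272 to 35678749 in WT. Genes with a count numbered 4739 to 10547 in PB libraries and 5389 to 8740 in PA libraries, against 11601 to 12061 in null. A count of 0 allows up to 3 counts, or 0.0984 to 1.40 CPM (counts per unit of sequencing depth, scaled by TMM so that libraries can be compared) depending on the library, for counting error only, since reads were not tagged by molecule. Ada2b itself was counted at 30.7 to 47.1 CPM in null and at 109 to 368 CPM in the 8 controls (null against WT, log2 fold change -1.75, SE 0.32, edgeR FDR 0.00473). Because whole embryos were pooled, fewer cells of a type and less RNA per cell cannot be told apart in any value below.

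The 4 inducer genes lie together on the minus strand of chromosome 3L (dm6). From low to high coordinate, hid (FBgn0003997) spans 18167745 to 18185641, grim (FBgn0015946) 18302719 to 18304417, rpr (FBgn0011706) 18397535 to 18398435 and skl (FBgn0036786) 18438561 to 18439942. The 4 genes together span 272.2 kb, with 4 other protein-coding genes, all in the 117.1 kb between hid and grim. The 93.1 kb between grim and rpr and the 40.1 kb between rpr and skl hold no protein-coding gene. The exons of grim overlap an antisense RNA gene by 749 bases and a noncoding gene on the same strand by 541 bases, so that its counts are less certain than those of the other inducers.

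The inducer transcripts were present in every genotype, and in no comparison did the level of any of them differ beyond the threshold used throughout, an edgeR FDR under 0.05 over all 10904 genes with a log2 fold change of at least 0.5. Reads of the 4 inducers together came to 216 to 365 CPM in null, 134 to 174 CPM in PA, 32.9 to 387 CPM in PB, 67.9 to 258 CPM in PA+PB and 65.7 to 265 CPM in WT. The null range overlapped those of PB and of both controls and lay above that of PA. Per kilobase of exon, rpr and hid stood level in WT at 27.3 ± 17.4 and 27.2 ± 13.8 CPM per kb (SD, n = 4), with skl at 7.52 ± 5.11 and grim at 4.34 ± 3.02. In null the same order held, with rpr at 58.0 ± 15.0 CPM per kb, hid at 48.0 ± 13.3, skl at 15.1 ± 2.92 and grim at 3.71 ± 2.39.

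For rpr, whose product is the founding member of the inducer group, the null libraries gave 1136, 898, 929 and 2150 counts, or 48.5, 40.5, 48.3 and 71.7 CPM in replicates 1 to 4. WT libraries gave 10.8, 18.1, 47.0 and 22.2 CPM, and PA+PB libraries 90.0, 46.5, 7.33 and 41.6 CPM. The null values were therefore tight and high, but replicate 3 of WT and replicates 1, 2 and 4 of PA+PB reached into or above their range. In PA, rpr had 0, 0, 376 and 81 counts (36.4 and 9.74 CPM in replicates 3 and 4), and in PB it had 0, 158, 0 and 1377 counts (28.6 and 45.2 CPM in replicates 2 and 4). Every null library exceeded every PA library. At the mean WT level the libraries with no rpr count would have held 145 counts in PA replicate 1, 69 in PA replicate 2, 53 in PB replicate 1 and 103 in PB replicate 3.

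The fitted difference of rpr went against these CPM values. The model contains 1 factor of unwanted variation, a covariate estimated from the spread between replicates, and with it the log2 fold change was -0.20 (SE 1.17, edgeR FDR 0.980) in null against WT and -1.61 (SE 1.37, FDR 0.626) against PA+PB. Without the factor the same values were 1.09 and 0.17. The factor lay between -0.847 and -0.812 in the 4 null libraries, below its range in WT (-0.784 to -0.119), so that for rpr the part due to genotype and the part due to the factor cannot be told apart. It also lay below its lowest value in any other genotype (-0.792, in PA+PB). The limit therefore applies to the fitted null changes of every gene below, not to rpr alone.

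Hid, the inducer whose activity is curbed by growth factor signalling through Ras, was counted in all 20 libraries. Its CPM values were 162, 140, 208 and 261 in null, 148, 134, 113 and 128 in PA, and 123, 136, 32.9 and 315 in PB. PA+PB libraries held 147, 103, 60.6 and 109 CPM and WT libraries 48.5, 105, 183 and 101 CPM. The null values were on average 1.80 times the mean of the 8 controls, yet the lowest null library lay under the highest control of each kind. Fitted log2 fold changes were 0.73 (SE 0.50, edgeR FDR 0.621) against WT and 0.76 (SE 0.51, FDR 0.490) against PA+PB.

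Grim and skl were the least abundant inducers. Grim reached 2.65, 11.6, 3.69 and 7.21 CPM in null, against 1.63, 8.86, 13.7 and 5.32 CPM in WT and 10.4, 4.41, 0 and 6.93 CPM in PA+PB. It had 15.0, 0, 1.55 and 12.5 CPM in PA and 0, 1.27, 0 and 15.4 CPM in PB. All 5 genotypes overlapped for grim, and the mean of null was 0.983 times that of the controls. Its fitted log2 fold changes, -2.23 (FDR 0.637) in null against WT and 3.44 (FDR 0.392) in PA against WT, again lay far from the CPM values, and without the factor the change in null against PA+PB turned from -1.67 to 0.21. Skl, named sickle, stood at 15.9, 23.3, 19.3 and 24.9 CPM in null and at 4.77, 8.30, 20.7 and 7.75 CPM in WT. PA+PB libraries held 9.98, 6.40, 0 and 9.88 CPM, PB libraries 1.86, 13.6, 0 and 11.9 CPM, and PA libraries 0, 0, 23.5 and 0 CPM. Null therefore lay above every PA+PB and every PB library for skl, while WT replicate 3 and PA replicate 3 fell within the null range. The log2 fold change of skl was 0.38 (SE 1.64, edgeR FDR 0.970) against WT and 1.12 (SE 1.64, FDR 0.821) against PA+PB. Without PB replicate 1, a library of none of these genotypes, the values turned to -1.65 and -1.42.

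**Figure D1:**
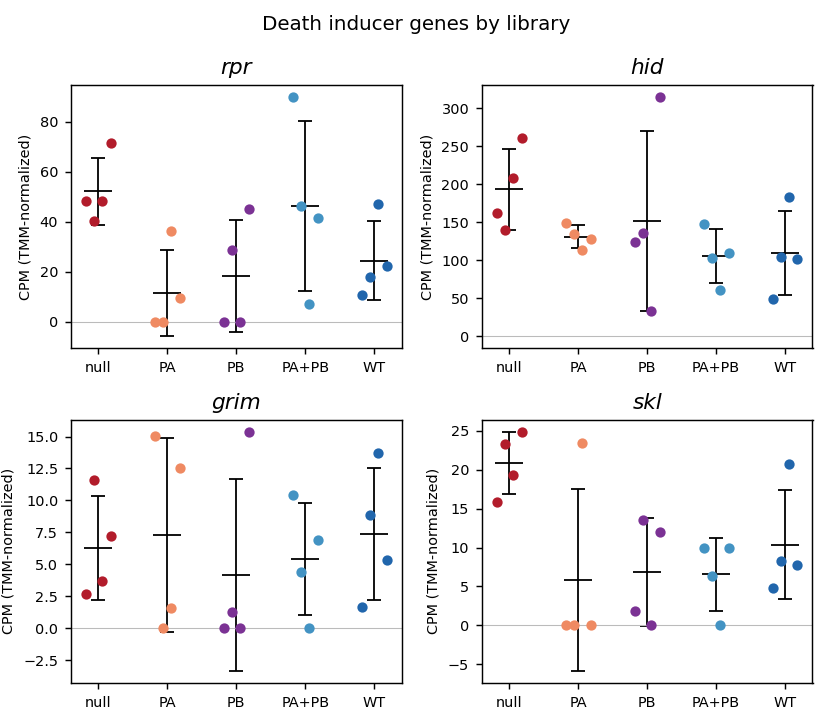
CPM (TMM-normalized, linear axis) of rpr, hid, grim and skl in each of the 20 libraries, by genotype; points are libraries, the horizontal line is the mean and the bars are 1 SD (n = 4). The null points for rpr (40.5 to 71.7 CPM) and skl (15.9 to 24.9 CPM) form tight groups that overlap at least 1 control genotype, and several PA and PB points lie at 0.

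Diap1 (FBgn0260635, chromosome 3L, 16038410 to 16051034, minus strand) encodes the inhibitor that the inducers remove. It was the most abundant of the 9 transcripts per kilobase in WT, at 79.8 ± 38.0 CPM per kb (SD, n = 4), followed by Drice at 77.6 ± 20.7 and Dronc at 65.2 ± 19, which did not differ beyond their spread. The exons of Diap1 share 347 bases with an antisense RNA gene. In null, Diap1 stood at 635, 585, 561 and 576 CPM, the narrowest spread of any genotype. WT libraries held 172, 207, 429 and 196 CPM and PA+PB libraries 312, 125, 32.8 and 306 CPM. Every null library was thus above every control library, with a mean of 589 ± 32.2 CPM (SD, n = 4) against 222 ± 123 CPM (n = 8), a ratio of 2.65. PA libraries held 354, 496, 311 and 630 CPM and PB libraries 527, 504, 420 and 622 CPM, so that both overlapped null and also WT replicate 3. The log2 fold change in null was 1.17 (SE 0.47, unadjusted p = 0.0220, edgeR FDR 0.220) against WT and 1.55 (SE 0.47, unadjusted p = 0.00375, FDR 0.0753) against PA+PB. In PB it was 1.24 (SE 0.51, FDR 0.176) against WT and 1.62 (SE 0.52, unadjusted p = 0.00543, FDR 0.0603) against PA+PB, the lowest FDR of any of the 9 genes in any comparison. In PA it was 1.04 (SE 0.52, FDR 0.356) against WT and 1.42 (SE 0.53, FDR 0.149) against PA+PB. With the 8 controls taken as 1 group, an alternative chosen after seeing the data, Diap1 passed the threshold in null (FDR 0.0435) and in PB (FDR 0.0407). With single libraries left out it passed in null against WT without PA+PB replicate 3 (1.22, FDR 0.0345) and in null against PA+PB without PA+PB replicate 1 (1.88, FDR 0.0357). In PB against PA+PB it passed without PB replicate 1 (FDR 0.0442), PB replicate 3 (FDR 0.0499), PA+PB replicate 1 (FDR 0.0415) or PA+PB replicate 4 (FDR 0.0490). Leaving out other libraries raised the FDR of Diap1. Over the 20 such fits it reached 0.463 in null against WT, 0.230 in null against PA+PB and 0.195 in PB against PA+PB.

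Dronc (FBgn0026404, chromosome 3L, 9968479 to 9971002, plus strand), the only caspase of the fly with a CARD domain and the initiator of apoptosis, showed the opposite arrangement. Null libraries held 29.6, 51.9, 35.0 and 39.9 CPM. WT libraries held 116, 157, 84.8 and 168 CPM and PA+PB libraries 109, 254, 281 and 146 CPM. All 4 null libraries lay below all 8 controls, and the mean of the controls was 4.21 times that of null. PA libraries, which also carry no Ada2b-PB, stood at 206, 162, 226 and 188 CPM, above WT on average and apart from null. PB libraries stood at 0, 112, 110 and 55.2 CPM, below every PA library, and the lowest of them lay beneath null. At the mean WT level PB replicate 1, the shallowest library, would have held 282 counts of Dronc. The log2 fold change was -2.02 (SE 0.78, unadjusted p = 0.0177, edgeR FDR 0.190) in null against WT and -2.91 (SE 0.88, unadjusted p = 0.00353, FDR 0.0726) against PA+PB. It was 3.18 (SE 1.0, unadjusted p = 0.00463, FDR 0.0962) in PA against null and 1.89 (SE 0.81, unadjusted p = 0.0308, FDR 0.193) in PA against PB. None of these passed the threshold. Without PB replicate 1, Dronc passed in null against WT (-1.59, FDR 0.00686), in null against PA+PB (-2.03, FDR 0.00556) and in PA against null (1.95, FDR 0.0160). That library, with Dronc at 0, is of none of the genotypes in these comparisons. Dronc also passed in null against PA+PB without PA replicate 2 (-3.36, FDR 0.0475) or PA+PB replicate 1 (-3.40, FDR 0.0325), and in PA against null without PA+PB replicate 3 (3.98, FDR 0.0216). Leaving out other libraries raised the FDR instead. Over the 20 such fits it reached 0.414 in null against WT, 0.190 in null against PA+PB and 0.199 in PA against null.

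Dark (FBgn0263864, chromosome 2R, 17020027 to 17026703, plus strand), the Apaf-1 relative that Dronc assembles on, was not set apart in null as Dronc was. Its CPM values were 79.7, 68.0, 71.6 and 76.1 in null, 33.0, 37.6, 86.3 and 64.1 in WT and 83.1, 54.6, 41 and 74.8 in PA+PB. PA libraries held 75.7, 108, 36.8 and 22.5 CPM and PB libraries 0, 46.5, 38.1 and 104 CPM. Null was the narrowest genotype again and sat inside the range of the controls. Fitted values on the log2 scale were 0.10 (SE 0.84, edgeR FDR 0.985) against WT and -0.25 (SE 0.88, FDR 0.932) against PA+PB, the latter turning to 0.22 without the factor. Its exons share 2779 bases with an antisense RNA gene, and whether the library kept strand is not given in the sources used here.

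Drice (FBgn0019972, chromosome 3R, 29799658 to 29801584, plus strand), the main effector caspase, was counted in all 20 libraries. Null libraries held 91.9, 67.9, 74.5 and 80.0 CPM, PA libraries 107, 86.7, 98.8 and 91.7 CPM, and PB libraries 44.2, 107, 119 and 49.98 CPM. WT libraries held 126, 197, 109 and 166 CPM and PA+PB libraries 86.8, 163, 309 and 147 CPM. Null lay below all of WT and overlapped PA+PB only because PA+PB replicate 1 was at 86.8 CPM, and every PA library also lay below every WT library. On the log2 scale the change was -0.92 (SE 0.42, unadjusted p = 0.0420, edgeR FDR 0.317) in null against WT and -1.16 (SE 0.46, unadjusted p = 0.0200, FDR 0.189) against PA+PB. In PB it was -0.91 (SE 0.44, FDR 0.234) against WT and -1.14 (SE 0.42, unadjusted p = 0.0131, FDR 0.0856) against PA+PB.

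The gene p53 (FBgn0039044, chromosome 3R, 23049657 to 23054082, minus strand), whose product is the transcription factor that activates inducer genes after irradiation, stood at 19.2, 9.56, 18 and 11.5 CPM in null. WT libraries held 23.3, 41.8, 29.6 and 44.8 CPM and PA+PB libraries 17.5, 42.7, 59.5 and 20.6 CPM. The null libraries lay below all of WT but overlapped PA+PB. PA libraries held 35.7, 16.4, 45.0 and 34.1 CPM and PB libraries 0, 5.07, 35.8 and 30.4 CPM. The log2 fold change in null was -1.60 (SE 0.96, edgeR FDR 0.526) against WT and -2.06 (SE 1.12, FDR 0.364) against PA+PB. The exons of p53 share 812 bases with an antisense RNA gene.

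**Figure D2:**
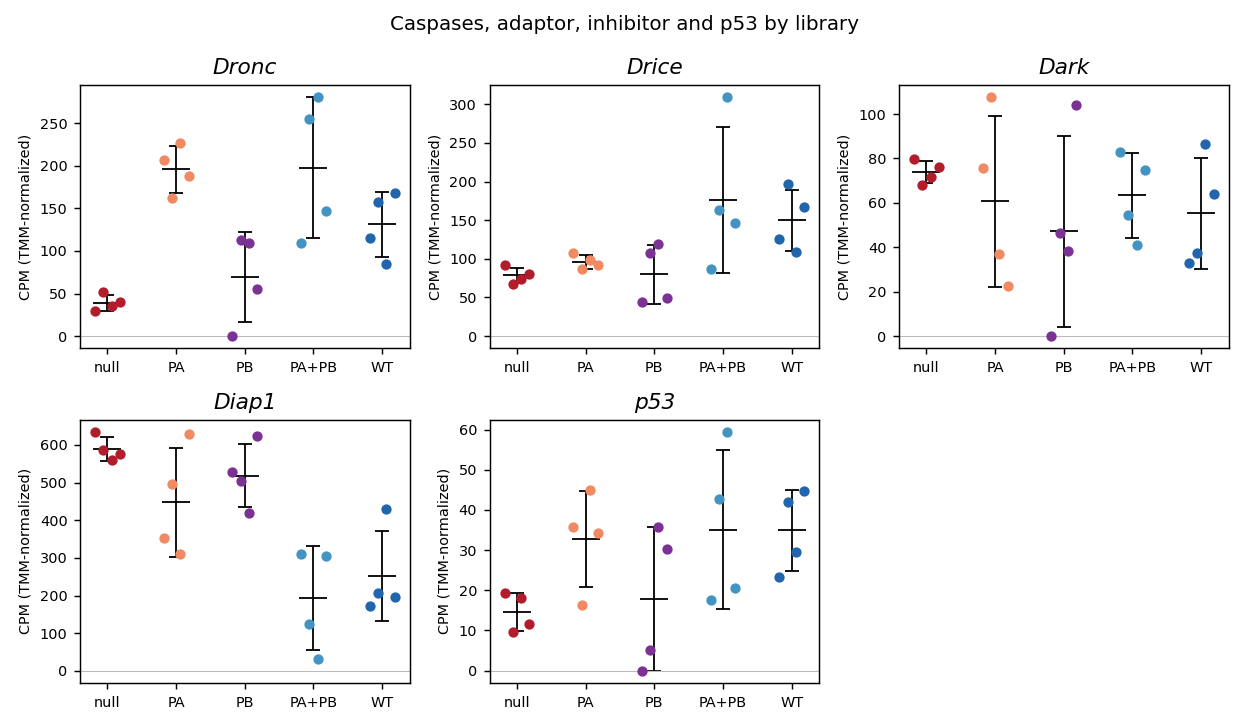
CPM (TMM-normalized, linear axis) of Dronc, Drice, Dark, Diap1 and p53 in each library by genotype; points are libraries, the horizontal line is the mean and the bars are 1 SD (n = 4). Null lies below all 8 controls for Dronc (29.6 to 51.9 CPM) and above all of them for Diap1 (561 to 635 CPM), and inside their range for Dark.

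Since Diap1 lay above and Dronc below the controls in null, their counts were also set against each other within each library, which cancels the library size. The ratio of Dronc to Diap1 counts was 0.0466, 0.0886, 0.0623 and 0.0692 in null replicates 1 to 4. It was 0.672, 0.759, 0.198 and 0.857 in WT and 0.350, 2.04, 8.55 and 0.478 in PA+PB, so the highest null ratio lay below the lowest control ratio. PA libraries had ratios of 0.583, 0.328, 0.728 and 0.298, all above null and within the range of the controls. PB libraries had ratios of 0, 0.223, 0.261 and 0.0887, between null and most controls, with replicate 4 next to the highest null library and replicate 1 at 0 of 1133 Diap1 counts. The ratio was formed after both genes had been seen to differ and is given as a description, with no test. For Drice over Diap1 the medians were 0.136 in null, 0.148 in PB and 0.239 in PA, beside 0.791 in WT and 0.894 in PA+PB. The ratio of hid to Diap1, the inducer over its target, had a median of 0.314 in null and 0.466 in WT, with ranges of 0.240 to 0.452 and 0.282 to 0.517 that overlapped. In PA+PB its median was 0.649, with a range of 0.357 to 1.84 that overlapped null as well, and PA (median 0.317) and PB (0.252) lay near null.

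**Figure D3:**
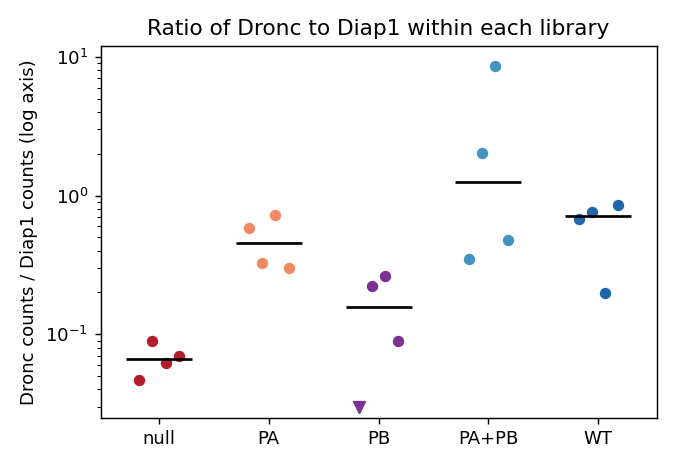
Ratio of Dronc counts to Diap1 counts in each library (log axis, no unit) by genotype; points are libraries, lines are medians, and the triangle marks a PB library with a ratio of 0. The 4 null libraries (0.0466 to 0.0886) lie below all PA, PA+PB and WT libraries.

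Over the 9 genes together, null against the 8 controls gave 1 gene whose CPM ranges did not overlap in the higher direction (Diap1) and 1 in the lower direction (Dronc), where 10.2% and 14% of all tested genes did so. Null against WT alone gave 1 higher (Diap1) and 3 lower (Dronc, Drice and p53), against a background of 18.8% and 19.8%. Null against PA+PB alone gave 2 higher (skl and Diap1) and 1 lower (Dronc), against 17.7% and 15.7%. Read against these shares, the counts do not set the 9 genes apart from the other tested genes. For PA and for PB against the 8 controls none of the 9 genes was free of overlap, where 6.1% and 10.3% of all genes were. Between PA and PB the single gene without overlap was Dronc, higher in PA, against a background of 3.78% of genes in either direction. Between null and PA, rpr was higher and Dronc lower in null (37.5% of genes in either direction), and between null and PB only skl was higher in null (17.7%). When genotypes were ranked by mean CPM for each of the 9 genes, 35 of the 36 neighbouring pairs overlapped, the exception being WT above PA for Drice.

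None of the 9 genes passed the edgeR threshold in any of the 10 comparisons between genotypes. The share of all genes that passed was 4.59% in null against WT and 3.38% in null against PA+PB, 0.11% in PA against WT and 0.532% in PA against PA+PB, and 0.835% in PB against WT and 6.59% in PB against PA+PB. It was 2.14% in PA against null, 0.138% in PB against null, 0.00917% in PA against PB and 0.0183% in WT against PA+PB. At an unadjusted p under 0.05, null against WT had 1 gene higher (Diap1) and 2 lower (Dronc and Drice) of 9, where 1.68% and 12.5% of all genes reached it, and the same genes reached it in null against PA+PB (3.31% and 13.8%). PB against PA+PB had 1 higher (Diap1) and 2 lower (Dronc and Drice), against 15.5% and 14.4%. PB against WT had 1 higher (Diap1, against 11.5%), PA against PA+PB had 2 higher (grim and Diap1, against 11.1%), PA against null had 2 higher (grim and Dronc, against 13.1%) and PA against PB had 1 higher (Dronc, against 9%). For grim these rises were in the fit only. Its CPM ranges overlapped, at 0 to 15.0 in PA, 2.65 to 11.6 in null and 0 to 10.4 in PA+PB. None of the 9 reached an unadjusted p under 0.05 in PA against WT (14.6% in either direction), PB against null (13.5%) or WT against PA+PB (3.65%). The median log2 fold change of the 9 genes was -0.20 in null against WT and -1.16 in null against PA+PB, beside -0.18 and -0.27 over all tested genes.

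The DESeq2 Wald test passed Diap1 in null against WT, Dronc and Diap1 in null against PA+PB, Drice and Diap1 in PB against PA+PB and Dronc in PA against null, and none of the 9 in the other 6 comparisons. It also called more genes in all, 145 higher and 701 lower in null against WT where edgeR called 5 and 495. With only the null and WT libraries in the fit, 7 of the 9 genes passed (all but grim and Dark), as did 3979 genes of 10862 in all. Without the 2 shallowest libraries, PA replicate 2 and PB replicate 1, a choice made after seeing the data, the fit passed hid, Dronc and Drice in null against WT and Dronc and Diap1 in null against PA+PB.

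**Figure D4:**
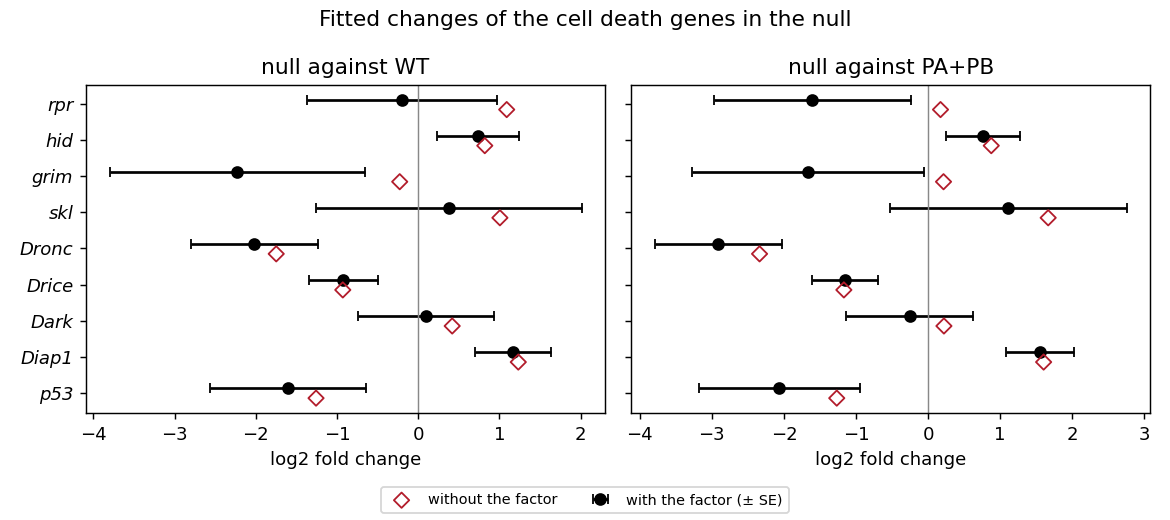
Fitted log2 fold changes of the 9 genes in null against WT (left) and against PA+PB (right); filled points are the fit with the factor of unwanted variation, bars are 1 SE, and open diamonds are the fit without it. Dronc, Drice and p53 lie below 0 and hid and Diap1 above 0 in both fits, while rpr moves from -0.20 to 1.09 against WT when the factor is left out.

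Among the other genes of the cell death pathway, ced-6 and Drep1 were the genes called in null. The pathway lists held 46 genes in 8 groups, of which 44 were tested. Null against WT had 0 higher and 1 lower call (4.54% of all genes were called lower), and null against PA+PB had 0 higher and 2 lower (3.27%). The median log2 fold change of the 44 genes was -0.07 and -0.79 in these comparisons, beside -0.18 and -0.27 over all genes. These counts are near or under the background.

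Of the 8 engulfment genes, ced-6, an adaptor of the phagocytic receptor Draper, was the one called lower in null in both comparisons. It stood at 155, 170, 149 and 164 CPM in null, against 515, 509, 345 and 554 CPM in WT and 279, 673, 786 and 452 CPM in PA+PB. All null libraries lay below all controls, and ced-6 fell by 1.5 on the log2 scale against WT (SE 0.35, edgeR FDR 0.0161) and by 1.58 against PA+PB (SE 0.37, FDR 0.0247). The call against WT was lost in 5 of the 20 fits that left out 1 library, among them all 4 without a null library (highest FDR 0.0631), and the call against PA+PB in 6 (highest FDR 0.0886), with log2 fold changes of -1.63 to -1.32 and of -1.86 to -1.25 over the 20. Both calls were also lost with DESeq2 size factors (-1.29, FDR 0.0885, and -1.53, FDR 0.0529) and with no filter on low counts (-1.19, FDR 0.104, and -1.22, FDR 0.155). Ced-12, of the Rac-activating engulfment module, passed only in PA against null, at 102, 99.2, 143 and 117 CPM in PA and 41.3, 39.5, 45.2 and 53.5 CPM in null (log2 fold change 2.29, SE 0.58, edgeR FDR 0.0421). That call was lost in 13 of the 20 fits that left out 1 library, with log2 fold changes of 1.51 to 2.44 over the 20, and with DESeq2 size factors (2.07, FDR 0.106), no filter (1.95, FDR 0.240), no factor (1.36, FDR 0.107) and the replicate block (2.25, FDR 0.0642). In the controls Ced-12 stood at 64.6 to 102 CPM in WT and 46.6 to 103 CPM in PA+PB. Null thus lay below all of WT and overlapped PA+PB, with no call against either. The other 6 engulfment genes passed in none of the 10 comparisons. The group did not share the direction of ced-6, with a median log2 fold change of 0.55 against WT and 0.59 against PA+PB. NimC4, a phagocytic receptor named after its values were seen, stood at 203 to 221 CPM in null and at 4.15 to 105 CPM in the 8 controls, with a log2 fold change of 2.05 (SE 0.84, edgeR FDR 0.228) against WT and 1.64 (SE 0.82, FDR 0.319) against PA+PB.

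Drep1, related to the inhibitor of the caspase-activated DNase, was the 1 called gene of the 4 DNA fragmentation genes tested. Null libraries held 11.6, 11.5, 12.2 and 10.3 CPM. PA+PB libraries held 99.2, 344, 458 and 224 CPM, and WT libraries 123, 24.6, 25.4 and 37.7 CPM. Drep1 fell by 4.85 on the log2 scale in null against PA+PB (SE 1.31, edgeR FDR 0.0448), a call lost in 14 of the 20 fits that left out 1 library (highest FDR 0.137), with log2 fold changes of -5.96 to -3.88 over the 20. It was also lost with DESeq2 size factors (-5.11, FDR 0.0513), no filter (-4.56, FDR 0.0907) and the 8 controls as 1 group (-3.62, FDR 0.0969). In the same group DNaseII, an acid DNase also named after its values were seen, lay the other way, at 84.6 to 112 CPM in null and 11.2 to 56.6 CPM in the 8 controls, with a log2 fold change of 1.79 (SE 0.63, edgeR FDR 0.127) against WT and 1.55 (SE 0.63, FDR 0.200) against PA+PB. Drep2, likewise named after its values were seen, lay in the direction of Drep1 with no call. It stood at 49.2 to 72.5 CPM in null and 200 to 713 CPM in the 8 controls.

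Xrp1, a bZIP transcription factor induced by p53 after irradiation, was the 1 called gene among the 8 of the DNA damage and p53 group, and only in PB against PA+PB, where it was also the 1 call of the 44 pathway genes, beside 6.59% of all genes. PB libraries held 827, 833, 2182 and 257 CPM, against 173, 58.0, 36.4 and 282 CPM in PA+PB. The values of PB replicate 4 and PA+PB replicate 4 overlapped, and the log2 fold change was 3.76 (SE 0.77, edgeR FDR 0.00964). Without PA+PB replicate 3 it was 3.19 and did not pass (FDR 0.0799), and with only the PB and PA+PB libraries in the fit it was 3.09 and did not pass (FDR 0.294). In null Xrp1 stood at 426, 437, 308 and 323 CPM, above WT at 298, 136, 274 and 104 CPM, with no call.

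The remaining 5 groups had no call in any comparison. The lowest p of each in null against WT belonged to Strica, a caspase with a long prodomain (log2 fold change -2.82, SE 1.44, edgeR FDR 0.405), Det, a survivin relative (-1.63, SE 1.36, FDR 0.726), and Debcl, a Bcl-2 family protein (0.44, SE 1.27, FDR 0.954). For the apoptosome group it belonged to Cyt-c-p, the somatic cytochrome c (-0.96, SE 0.49, FDR 0.410), and for the TNF and JNK branch to Tak1, a kinase upstream of JNK (-0.95, SE 0.28, FDR 0.0553).

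Summed levels of tissue markers and of maternal RNA varied between libraries, although few single markers passed the test. The summed level of the germ cell and maternal markers vas, nanos and bcd was 13.7 to 15.8 CPM in null, 57.9 to 162 CPM in PA, 0 to 149 CPM in PB, 38.7 to 248 CPM in PA+PB and 188 to 390 CPM in WT. Dronc was lowest in the libraries where this sum was lowest, the null libraries and PB replicates 1 and 4. The 3 glial markers summed to 406 to 457 CPM in null, 134 to 311 CPM in WT and 22 to 321 CPM in PA+PB, and the 3 neuronal markers to 494 to 696 CPM in null, 236 to 540 CPM in WT and 46.6 to 535 CPM in PA+PB. Higher medians in null were not particular to the nervous system. Gut markers had medians of 341 CPM in null, 142 in WT and 197 in PA+PB, and epidermal and tracheal markers 569, 292 and 228 CPM. The medians of the muscle and haemocyte sums were likewise highest in null of these genotypes. Among the neuronal markers, elav was higher in the null fit (0.62 against WT, 0.69 against PA+PB) and nSyb was not (-0.05 and -0.44). Over 20 markers of 6 embryonic tissues, PA+PB replicate 3 had the lowest sum, 694 CPM, beside the lowest Diap1 of any library, 32.8 CPM, and 2 of the 4 inducers at 0. The muscle markers made up most of this sum in some libraries. WT replicate 1 had 12228 CPM with them and 953 CPM without. PA+PB replicate 3 remained the lowest without them, at 178 CPM. In null no tissue marker passed the edgeR threshold against either control, and of the maternal markers bcd did, with log2 fold changes of -5.56 (FDR 0.00774) against WT and -5.12 (FDR 0.0262) against PA+PB. In PB against PA+PB, where Xrp1 was called, srp of haemocytes (2.30, FDR 0.0305) and grh of the epidermis (1.97, FDR 0.0418) passed. Haemocyte markers summed to 408 to 675 CPM in PB and 28.5 to 222 CPM in PA+PB, and epidermal and tracheal markers to 427 to 1181 CPM and 52.4 to 473 CPM. The rise was not particular to these tissues. Every other tested marker of the 6 tissues was also higher in PB in the fit, from 0.84 (btl) to 4.98 (Syt1) on the log2 scale, without passing. In null and WT, every marker but He, of haemocytes, was counted in every library, whereas vas, nanos and bcd were all at 0 in PB replicate 1. The part of tissue makeup, stage and maternal RNA in the differences of Dronc, Diap1, Drice and Xrp1 was not tested.

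**Figure D5:**
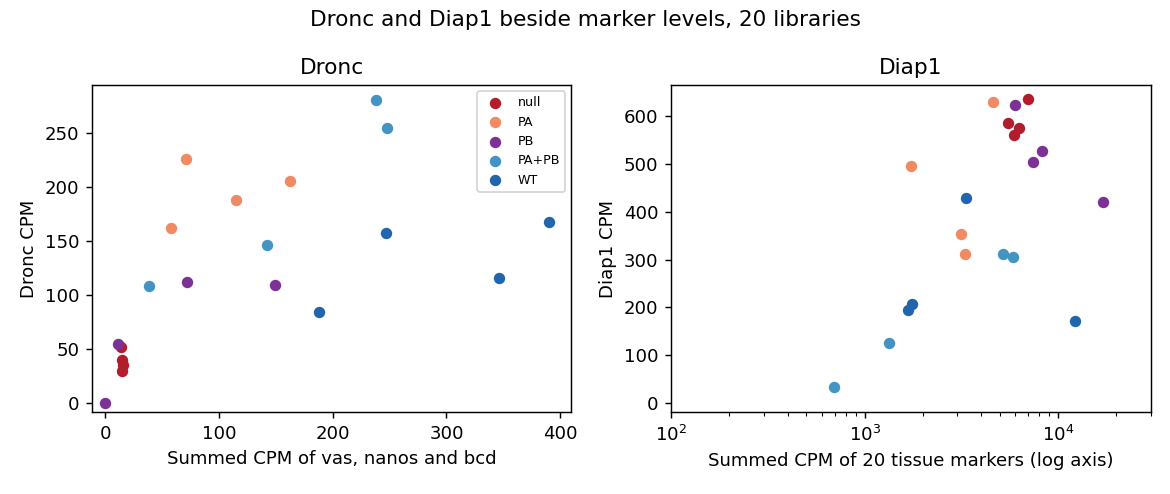
Left, Dronc CPM against the summed CPM of vas, nanos and bcd; right, Diap1 CPM against the summed CPM of 20 tissue markers (log axis); points are the 20 libraries, coloured by genotype. The null libraries sit together at 13.7 to 15.8 CPM of maternal markers with Dronc at 29.6 to 51.9 CPM, and PA+PB replicate 3 lies lowest on the right at 32.8 CPM of Diap1. Muscle markers make up most of the tissue sum in some libraries.

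Counts of 0 stood only in PA, PB and PA+PB libraries, and these were not always the shallowest. In all, 16 of the 180 values of the 9 genes were 0, with 5 in PB replicate 1, 3 each in PA replicate 2 and PB replicate 3, 2 each in PA replicate 1 and PA+PB replicate 3 and 1 in PA replicate 4. No null and no WT library had a 0, nor had PA+PB replicate 1 (4828612 counts on genes) or PB replicate 2 (5850673), both shallower than PA+PB replicate 3 (10410141). The share of deposited counts that fell on genes was also lower in every PA library than in any null or control library. Its part in the zeros was not tested. Hid, Drice and Diap1 were counted in all 20 libraries. Dark and p53 at the mean WT level would have given 119 and 75 counts in PB replicate 1, where both were at 0.

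Across the 20 libraries, Dronc and p53 (Pearson r = 0.92 of log2 CPM) were the pair of cell death genes with the highest r. Dronc and Dark (r = 0.82) and Dark and p53 (r = 0.81) followed, and Drice and Diap1 (r = -0.84) had the lowest. Dronc, Dark and p53 were all at 0 in PB replicate 1, and r was not computed without it. The values with Dark therefore cannot show that Dark varied with Dronc or p53 in the other libraries. Null had the lowest mean of Dronc (39.1 CPM) and of p53 (14.6 CPM) but the highest of Dark (73.9 CPM). The other genotypes kept 1 order of means for Dronc and Dark, with PB, which holds that library, lowest. The genes most like each member by the same measure were CG6693 and CG11596 for Dronc (both r = 0.99), La and noc for Diap1 (0.97 and 0.96), CG7536 and Cyt-c-p for Drice (both 0.91) and stg and Tom for hid (0.93 and 0.92). For rpr they were CG6654 and CG3430 (0.98 and 0.97), for skl Ufd1 and dgt2 (both 0.95), for grim CG32407 and CG2614 (both 0.92), for Dark feo and mRpL19 (0.98 and 0.97) and for p53 alien and Es2 (0.97 and 0.96). These values describe 20 libraries that share depth and zeros, with Dronc, Dark and p53 all at 0 in PB replicate 1, and were ranked among 6849 genes (6850 for grim) with a mean of at least 10 CPM.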

How the data were processed

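Total RNA from pooled embryos was depleted of ribosomal RNA and sequenced. The authors trimmed reads with Trimmomatic, mapped them to dm6 with HISAT2 and deposited raw counts per gene from HTSeq 0.11.1 with default parameters. Gene rows held 2.39% to 32.2% of a library's deposited counts. The rest was HTSeq's 5 summary categories and 2 transgene entries, which were left out with 138 rRNA genes. The share on gene rows differed between genotypes. It was 2.39% to 8.89% in PA and 2.53% to 27.3% in PB, against 14.7% to 24.5% in null, 10.4% to 20.3% in PA+PB and 19.6% to 32.2% in WT. Counts were tested with edgeR 4.0.16 in R 4.3.3 (quasi-likelihood, TMM, filterByExpr, all 20 libraries, 1 factor of unwanted variation computed after the RUVs method with a pseudocount of 1). The code was also run on simulated data built from the fitted levels. There the factor was drawn at random over libraries, so the simulation does not cover a factor that is nearly constant in null. FDR is the Benjamini-Hochberg value over 10904 genes. SE is the log2 fold change over the root of F and is unreliable for genes with zeros. Positions and exon lengths are from Ensembl annotation of dm6, which gave 17710 of the 17807 gene IDs a position.

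The 9 genes and the pathway lists were chosen with earlier results of these data known. All 9 are described; of the pathway lists, called genes are named, and the gene with the lowest p in null against WT where a list had none; likewise the 2 genes most like each of the 9 by Pearson r of log2 CPM (prior count 2). Alternatives were other scalings, filters, factors, sample sets, DESeq2 1.42.0 and a replicate block. Biological replicates are those the study names; p-values measure the spread between them. No batch is labelled. No sequences were used here.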

Additional observations from a re-analysis of the deposited data

Results flagged for a closer look

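Among the 45 sets of 4 libraries (9 genes in 5 genotypes), 3 held a library far from the other 3 by Dixon's criterion, where chance gives about 1 in 20. Diap1 in WT was highest in replicate 3, at 429 CPM against 172 to 207 CPM in the others, and this is the library labelled stage 12 to 15. Grim in PB was highest in replicate 4, the deepest PB library, at 15.4 CPM against 0 to 1.27 CPM. Skl in PA was highest in replicate 3, at 23.5 CPM, with the other 3 libraries at 0.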

How the results depend on the processing

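The counts of the 9 genes past the threshold, 0 in each comparison, stayed at 0 with DESeq2 size factors, no filter on low counts, no factor and the replicate block. With 2 factors they became 1 in null against PA+PB, 2 in PB against PA+PB and 1 in PA against null, and with the DESeq2 Wald test 1 in null against WT, 2 in null against PA+PB, 2 in PB against PA+PB and 1 in PA against null. With only the groups compared they were 7 in null against WT, 1 in null against PA+PB and 1 in PA against null. Another 2 settings were added after seeing the data. With the 8 controls as 1 group they were 1 in null and 1 in PB; without the 2 shallow libraries they were 3 in null against WT, 2 in null against PA+PB, 1 in PB against WT, 3 in PB against PA+PB and 1 in PA against null. With each library left out they ranged from 0 to 1 in null against WT, PB against PA+PB and PA against null and from 0 to 2 in null against PA+PB; the libraries whose absence gave a call were PA replicate 2, PB replicates 1 and 3 and PA+PB replicates 1, 3 and 4.

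Of the single-gene values, 806 kept direction and side, 44 gained and 51 lost a call and 24 turned. For rpr, null against WT turned to 1.09 without the factor, 0.57 with 2 factors, 1.54 (FDR 0.00858) with only the groups compared, 0.13 with the DESeq2 Wald test, 0.022 with the replicate block and 1.01 without the 2 shallow libraries, and null against PA+PB to 0.17 without the factor. For grim, null against PA+PB turned to 0.21 without the factor and null against WT to 0.72 with only the groups compared. Dark turned to 0.22 (PA+PB, no factor), -0.070 (8 controls as 1 group) and 0.056 (PA+PB, without the 2 shallow libraries), and skl to -0.019 (PA+PB, only the groups compared). With each library left out, the null changes against WT and PA+PB ranged for rpr from -0.42 to 0.13 (WT), for Dark from -0.29 to 0.41 and -1.04 to 0.23, and for skl from -1.65 to 0.80 and -1.42 to 1.42. The causes were not tested. Without the factor the median of all genes moved in the null comparison with WT from -0.18 to 0.40, and in that with PA+PB from -0.27 to 0.49. Over all genes, calls in null against WT were 500, against 149 with no filter, 224 with DESeq2 size factors, 741 with 2 factors, 846 with the DESeq2 Wald test, 1310 without the 2 shallow libraries and 3979 with only the groups compared; in null against PA+PB they were 369, against 72, 232, 625, 1176, 1244 and 678. Same-numbered replicates did not on the whole deviate together (median r 0.00613 over 40 pairs, range -0.46 to 0.48, and 0.00354 over 120 others). The numbers thus gave no sign of pairing. With so wide a range, the check cannot decide whether same-numbered libraries were collected or prepared together.

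Values of rpr, grim and skl in PA and PB rest on libraries with zeros, which were not always the shallowest, and the factor is nearly constant in null.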
